A study of Homo sapiens with 4 samples.

Results

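The genes described here are 9 replication-dependent histone genes and SLBP, the gene for the protein that binds the end of their messages. They were chosen by symbol, as the probe sets of an Affymetrix HG-U133 Plus 2.0 array whose annotation names H1-2, H2AC6, H2AC8, H2AC17, H2BC5, H2BC9, H2BC12, H2BC21, H4C8 or SLBP. These are 10 of the 19775 genes measured, and all 10 were among the 12190 genes bright enough to be tested. The RNA came from MIA PaCa-2 cells, a line established from a human pancreatic carcinoma. One group carried a lentivirus for FLAG-tagged full-length ING3, in a vector whose name gives a CMV promoter and puromycin selection, and the control group carried a GFP lentivirus; both were selected for stable expression and grown to the same confluence in medium with fetal bovine and horse serum. ING3 belongs to NuA4/TIP60, a complex that acetylates histones, and the comparison asks which transcripts differ when it is overexpressed. There were 2 ING3 arrays and 2 control arrays (a and b of each), which the series' design text calls technical duplicates. The p-values therefore measure only the spread between arrays of 1 cell population per group, which is technical. Whether a population was 1 clone or a pool is not given in the sources used here. ING3 itself, on its brightest probe set, had signals of 521 and 541 on the ING3 arrays and of 338 and 373 on the control arrays; it was not called (adjusted p = 0.071 by limma), and the probes' positions relative to the transgene are not known here.

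Replication-dependent histone genes supply the bulk of new histones during S phase, when DNA is copied. Their messages are unusual in that most end in a short stem-loop and carry no poly(A) tail: SLBP binds the stem-loop, and a processing complex built around the U7 small nuclear ribonucleoprotein cuts the transcript behind it. Some of these genes can also yield polyadenylated messages, by reading on to a downstream poly(A) signal, and such forms are known from differentiated cells and tumour lines. The labelling kit named in the labels starts its reverse transcription from an oligo(dT) primer, so polyadenylated messages are the ones it is built to copy. The signals below do not separate the forms.

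In the ING3 cells 1 of the 10 genes rose and 0 fell, against 1.03% of all tested genes that rose and 0.476% that fell. The gene that rose was H2BC21, an H2B gene, at 1.77-fold. The other 9 were not called. None of the 10 differed by 2-fold or more, against 0.566% of all tested genes. H2AC8 passed the filter on dim signals only through its ING3 arrays, so its place on the higher side was fixed by that. The mean was higher in ING3 cells for 8 of the 9 histone genes (7 of 8 without H2AC8) and lower for H2AC17, and it was higher for 48.3% of all tested genes. The median log2 difference of the 9 histone genes, ING3 minus control, was 0.34 (0.25 over the 8 without H2AC8), and that of all tested genes was -0.0074. Both ING3 arrays lay above both control arrays for 7 of the 10 genes (6 histone genes, H2AC8 among them, and SLBP), against 24.3% of all tested genes; both lay below for H2AC17, against 24.9%. The genes were chosen with earlier results of these data known, so these counts describe them and lend no independent weight to a direction.

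**Figure D1:**
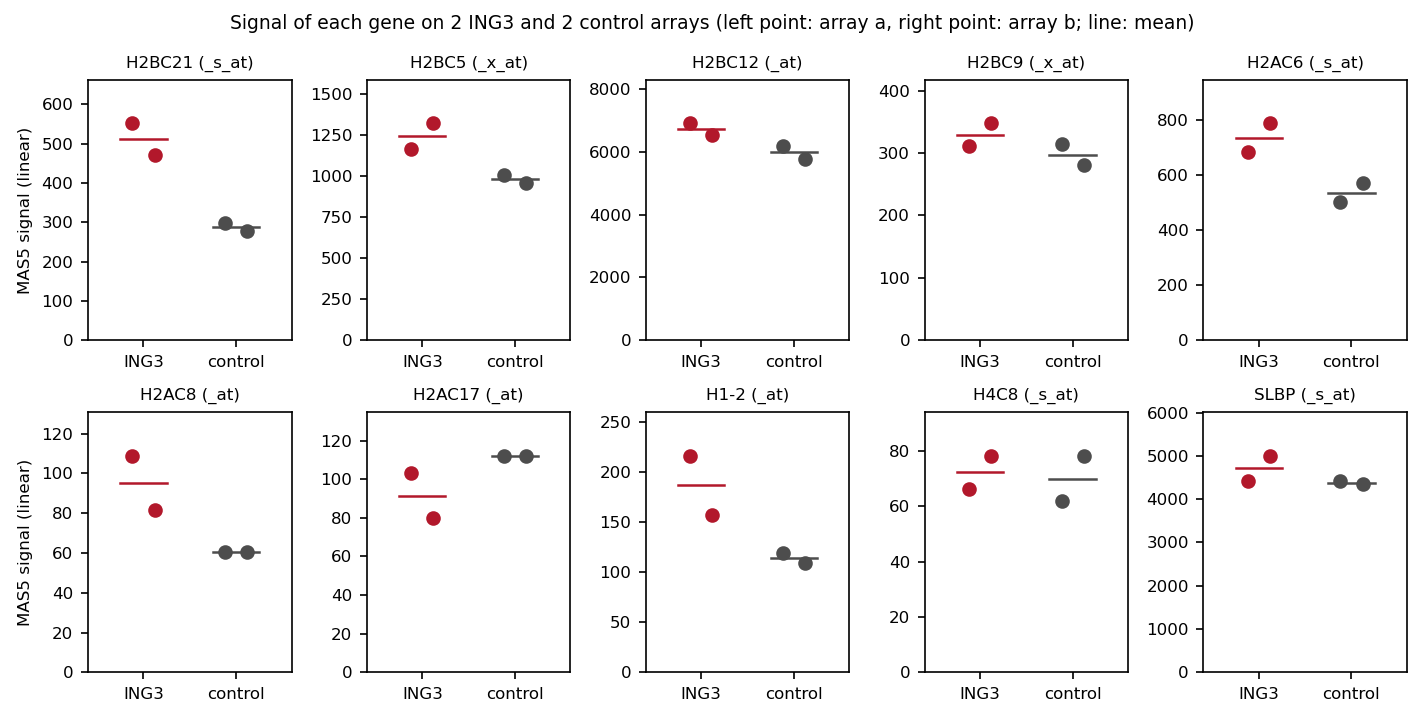
Linear MAS5 signal of each gene (y axis, from 0) on the 2 ING3 arrays and the 2 control arrays; each point is 1 array, each line the mean of a group, and the suffix of the probe set is in the panel title. H2BC21, H2BC5, H2BC12, H2AC6, H2AC8, H1-2 and SLBP have both ING3 arrays above both control arrays, SLBP by a margin of 0.0016 on the log2 scale.

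The genes lie at 3 places in the genome (RefSeq, GRCh38.p14). H2BC21 is on chromosome 1 (chr1:149884459-149886682, minus strand), SLBP is on chromosome 4 (chr4:1692731-1712319, minus strand), and the other 8 lie in the histone cluster of chromosome 6, between H1-2 (chr6:26055740-26056470, minus strand) and H2AC17 (chr6:27892699-27893185, minus strand). Most of the annotated histone genes are short, from 409 bases (H4C8) to 731 bases (H1-2). The exceptions are H2BC21 with 2224 bases, H2BC12 with 8566 and H2BC5 with 13229, each with a longer annotated span. Their log2 differences were 0.82, 0.17 and 0.34, and those of the 6 shorter histone genes ran between -0.30 and 0.69, so the ranges of the long and short genes overlap.

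The promoters are shown because they let the H2B genes, which hold the gene that rose, be compared by eye. Each sequence is the 100 bases before the annotated start, 5′ to 3′ on the gene's strand (RefSeq, GRCh38.p14). Capitals mark the octamer ATTTGCAT, an element known from H2B promoters that the factor Oct-1 binds, and the TATA-box letters TATAAA.
H2BC21 (chr1:149886683-149886782, minus strand): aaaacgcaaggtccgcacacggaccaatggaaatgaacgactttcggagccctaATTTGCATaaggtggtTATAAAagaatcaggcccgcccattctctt
H2BC12 (chr6:27146859-27146958, minus strand): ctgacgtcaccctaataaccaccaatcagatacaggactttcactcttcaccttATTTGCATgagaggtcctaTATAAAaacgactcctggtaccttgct
H2BC9 (chr6:26251514-26251613, plus strand): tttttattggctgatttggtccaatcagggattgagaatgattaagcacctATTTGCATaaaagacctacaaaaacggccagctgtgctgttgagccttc
H2BC5 (chr6:26158021-26158120, plus strand): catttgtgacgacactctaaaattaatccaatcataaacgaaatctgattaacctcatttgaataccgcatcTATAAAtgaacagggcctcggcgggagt
H2AC17 (chr6:27893186-27893285, minus strand): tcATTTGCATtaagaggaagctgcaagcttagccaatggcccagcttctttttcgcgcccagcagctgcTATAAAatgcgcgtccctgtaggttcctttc
H1-2 (chr6:26056471-26056570, minus strand): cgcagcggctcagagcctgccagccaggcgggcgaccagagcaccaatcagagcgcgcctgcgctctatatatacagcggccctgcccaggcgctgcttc

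All 10 genes matched a promoter entry, and the search covered 250 bases before and 50 after the start, on both strands. The octamer was found in 6 of the 10 (H2BC21, H2BC12, H2BC9, H2AC6, H2AC8 and H2AC17), in 20 of 55 other replication-dependent histone genes and in 1.8% of all 27305 promoters. Those 20 include 11 of 14 other H2B genes and 8 of 13 other H2A genes, so it is common in genes of these kinds. In the H2B genes among the 10 that hold it, the octamer began 46 bases (H2BC21 and H2BC12) or 49 bases (H2BC9) before the start. In H2AC6, H2AC8 and H2AC17 it began 130, 192 and 98 bases before the start, and in H2AC6 and H2AC8 it lay on the opposite strand. These 3 H2A genes stand head to head with an H2B gene whose start is 233 to 246 bases away, as H2BC21 does with H2AC20 at 236 bases. TATAAA was found in 6 of the 10, in 65.5% of the other replication-dependent histone genes and in 12% of all promoters. CCAAT, a general promoter element, was found in 8 of the 10, in 83.6% of those other genes and in 35.7% of all promoters. H4C8 and SLBP held none of the 3 motifs, and H1-2 held CCAAT alone. The log2 differences of the 6 genes with the octamer ran from -0.30 (H2AC17) to 0.82 (H2BC21) and those of the 4 without it from 0.05 (H4C8) to 0.69 (H1-2), so the ranges overlap.

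**Figure D2:**
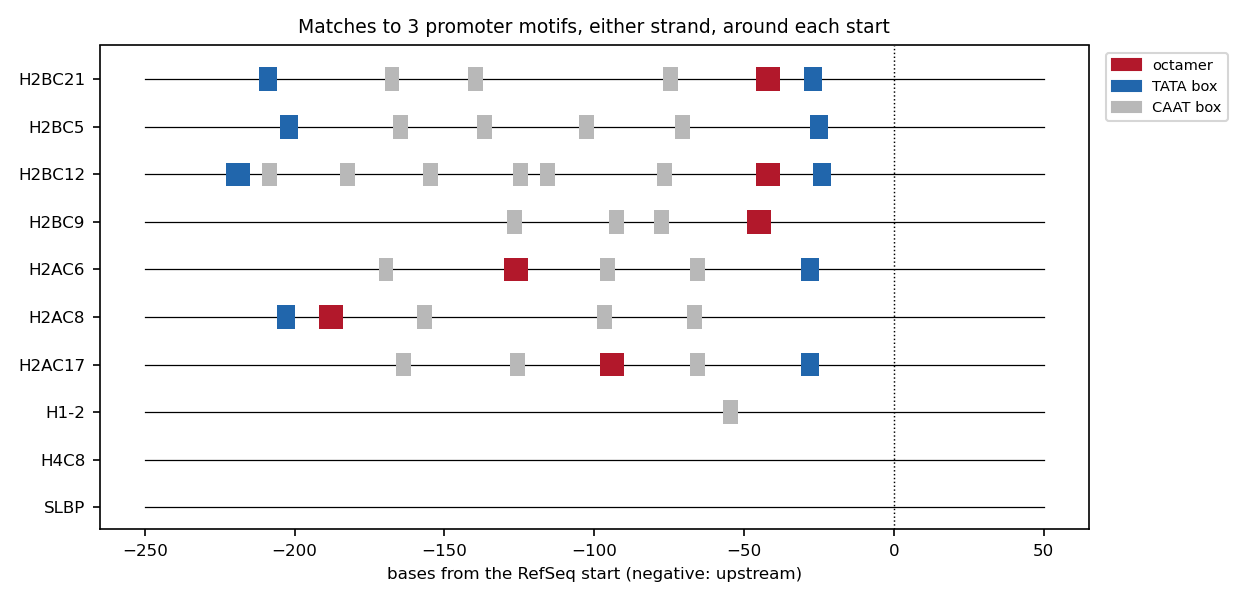
Position of each match to the octamer, the TATA box and the CAAT box (coloured blocks, either strand) in bases from the RefSeq start of each gene, shown from 250 bases before to 50 after it. The octamer stands 46 to 49 bases before the start in H2BC21, H2BC12 and H2BC9 and further upstream in the 3 H2A genes.

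Histone genes resemble each other closely, so the kind of probe set matters. A suffix of _at marks a probe set designed for 1 transcript, _s_at marks probes shared by several transcripts, and _x_at marks probes that can cross-hybridise to other sequences. The annotation named a member for 19 probe sets, of which 12 named 1 gene and 7 named several histone genes at once. The value of a gene is that of its brightest probe set with 1 symbol, which was an _at probe set for 4 genes, an _s_at probe set for 4 and an _x_at probe set for 2. Of the 12, 11 passed the filter on dim signals. The filter is a mean log2(signal + 1) over the 4 arrays equal to that of a signal of about 64.6. When each probe set was tested as a feature of its own, 0 of the 16 that passed were called by limma, and 0.37% of the 27305 probe sets tested were called. Among the 16 are 214469_at of H2AC8 and 214542_x_at, which is annotated to several H2A genes. These passed only through their ING3 arrays, so their part in this count is no test of them. At an unadjusted p under 0.05 in the fit over genes, 5 of the 9 histone genes passed (H2BC21, H2AC6, H2BC5, H2BC12 and H1-2), all of them higher in ING3 cells. Of all tested genes 17.7% passed in either direction and 9.54% with a higher mean.

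H2B is 1 of the 4 core histones of the nucleosome. H2BC21, which is measured by the single probe set 202708_s_at, had signals of 551 and 470 on the ING3 arrays and of 297 and 279 on the control arrays. Both ING3 arrays stood well above both control arrays, and the group difference was 3.56 times the larger gap between duplicates. The means were 511 ± 57.7 in ING3 cells and 288 ± 12.9 in control cells (SD, n = 2 arrays each). The log2 difference was 0.82 (SE 0.15, 95% interval 0.49 to 1.15, adjusted p = 0.033 by limma). With 1 array left out the sign could not change, since both ING3 arrays lie above both control arrays. The log2 difference was then 0.71 without ING3 array a and 0.94 without ING3 array b. It was 0.87 without control array a and 0.775 without control array b. The call did not hold with every array left out. It was also not called without the intensity trend in the variance (adjusted p = 0.237), with no filter on dim genes (0.0852), with gene values averaged over probe sets (0.0800) or in the fit over probe sets (0.0713).

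H2BC5 was read by 2 probe sets, both of the _x_at kind. On the brighter one, 209911_x_at, its signals were 1166 and 1322 on the ING3 arrays and 1007 and 956 on the control arrays. The log2 difference was 0.34 (SE 0.096, adjusted p = 0.118 by limma), and the groups did not overlap. The dimmer one, 222067_x_at, had 760 and 864 on the ING3 arrays and 577 and 579 on the control arrays. It gave a log2 difference of 0.49 (SE 0.11, adjusted p = 0.119 in the fit over probe sets), so both probe sets of the gene went the same way and neither passed.

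H2BC12 had signals of 6910 and 6539 on the ING3 arrays and of 6188 and 5775 on the control arrays, on 209806_at. Its groups did not overlap, and the 95% interval of its log2 difference ran from 0.027 to 0.31 around 0.17 (adjusted p = 0.212 by limma). H2BC9, on 208546_x_at, had 311 and 348 on the ING3 arrays and 315 and 281 on the control arrays. Its groups overlapped, and the log2 difference was 0.15 with a 95% interval of -0.22 to 0.51.

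H2A is the partner of H2B in the nucleosome. H2AC6 (215071_s_at) had signals of 683 and 786 on the ING3 arrays and of 500 and 569 on the control arrays. The groups did not overlap, and the log2 difference was 0.46 (SE 0.13, adjusted p = 0.106 by limma).

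H2AC8 (214469_at) had signals of 109 and 81.7 on the ING3 arrays, against 60.6 on each control array. The control values lie under the filter and the ING3 values above it, so the gene passed only through its ING3 arrays, and its log2 difference of 0.63 is given as a description, with no test.

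H2AC17 was the gene with a lower mean in the ING3 cells, and the signs of its probe sets differed. On 214481_at, which is annotated to it alone, the signals were 103 and 79.7 on the ING3 arrays and 112 on each control array. The log2 difference there was -0.30 (95% interval -0.98 to 0.38, adjusted p = 0.655 by limma). A pair of other probe sets is annotated to 6 H2A genes, H2AC17 among them. The first, 207156_at, had 330 and 249 on the ING3 arrays and 278 and 240 on the control arrays (log2 difference 0.15). The second, 214542_x_at, had 195 and 150 on the ING3 arrays and 78.4 and 27.0 on the control arrays, a log2 difference of 1.87. Its mean log2 signal in control cells lies under the filter, so it passed only through its ING3 arrays and no test is given. Its control duplicates were themselves 2.91-fold apart. The sign for H2AC17 thus differs between probe sets, but none of them shows a direction. The intervals of 214481_at and 207156_at (-0.30 to 0.60 for the latter) include 0, and the high side of 214542_x_at was fixed by the filter. Which of the 6 genes the shared ones read is uncertain.

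**Figure D3:**
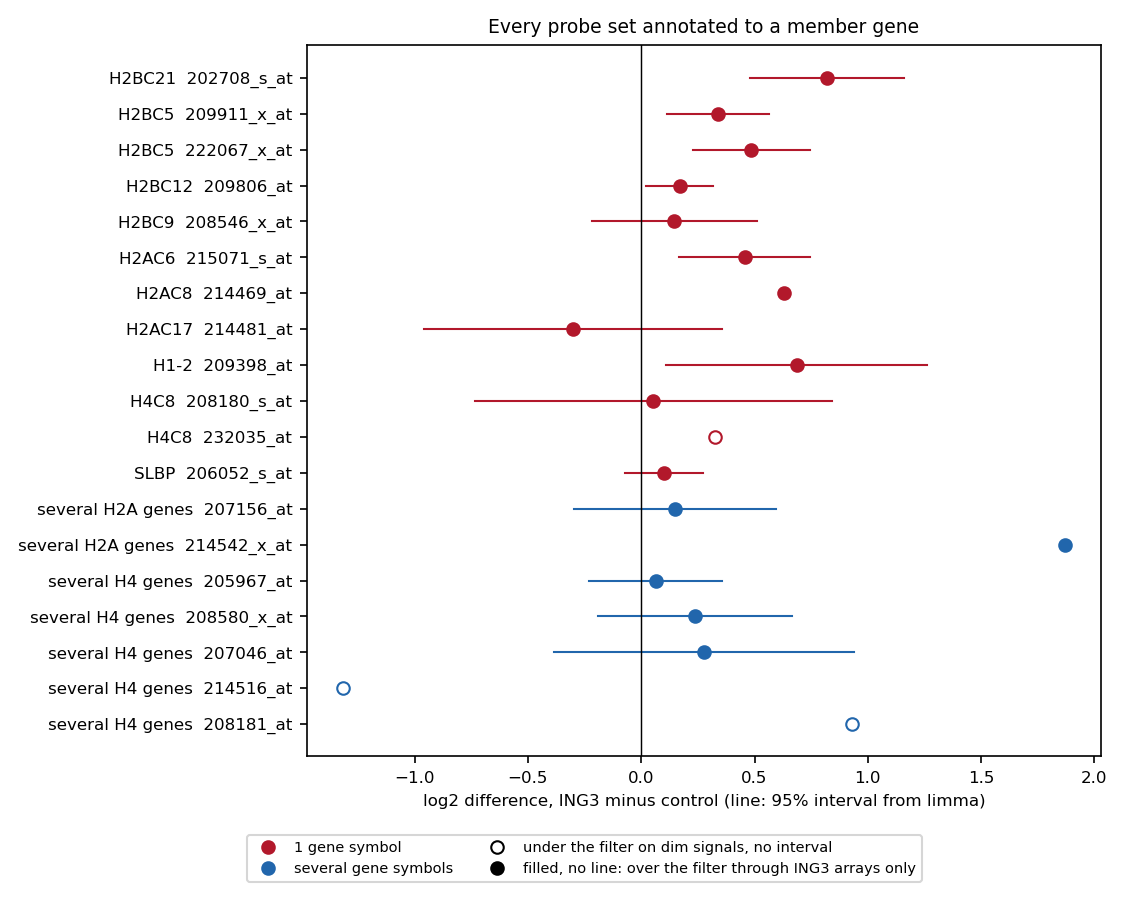
Log2 difference, ING3 minus control, of each of the 19 probe sets annotated to a member (points), with its 95% interval from limma where it passed the filter other than through the ING3 arrays alone; red marks probe sets with 1 symbol, blue those with several, and open points those under the filter. H2BC21 stands at 0.82, and the probe sets annotated to several H2A genes stand at 0.15 and 1.87.

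H1-2 encodes a linker histone, which binds the DNA between nucleosomes. On 209398_at it had signals of 216 and 157 on the ING3 arrays and of 119 and 110 on the control arrays. The groups did not overlap, but the ING3 duplicates were far apart from each other. The log2 difference was 0.69 (SE 0.26, 95% interval 0.10 to 1.27, adjusted p = 0.217 by limma).

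H4C8 encodes histone H4, which many genes encode in common. Its brighter own probe set, 208180_s_at, had signals of 66.4 and 78.4 on the ING3 arrays and of 61.9 and 78.0 on the control arrays. The groups overlapped, with a log2 difference of 0.05 and a 95% interval of -0.78 to 0.89, so neither a rise nor a fall of 1.5-fold could be told from none at this signal. Its other own probe set, 232035_at, fell under the filter, with 62.0 and 78.8 on the ING3 arrays and 78.9 and 39.1 on the control arrays. The 5 probe sets annotated to 14 H4 genes, H4C8 included, ranged widely. The brightest, 205967_at, had 2154 and 2853 on the ING3 arrays and 2539 and 2217 on the control arrays, and its groups overlapped (log2 difference 0.06, 95% interval -0.23 to 0.36). The other 2 of these that passed the filter had log2 differences of 0.24 (208580_x_at) and 0.28 (207046_at), and neither was called.

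SLBP binds the stem-loop of histone messages and is needed for their processing, export and translation. On 206052_s_at it had signals of 4413 and 5005 on the ING3 arrays and of 4408 and 4355 on the control arrays. The ING3 and control arrays came within 0.0016 of each other on the log2 scale, which is the margin by which the groups do not overlap. The log2 difference was 0.10 (SE 0.072, 95% interval -0.061 to 0.26, adjusted p = 0.507 by limma).

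Across the 4 arrays the genes did not follow 1 profile. Likeness was measured as the root mean square distance between log2 values centred on each gene's mean, over 4 arrays. This distance includes the difference between groups, whose side was fixed by the filter for H2AC8. H1-2 and H2AC8 were nearest to each other (0.053), and both were higher on ING3 array a than on ING3 array b, as was H2BC21, whose nearest gene was H1-2 (0.11). H2AC6 was nearest to H2BC5 (0.11), and both were instead higher on ING3 array b. Arrays a and b of a group are technical duplicates, so their order describes measurement spread. Among the 9 histone genes the median absolute log2 difference was 0.23 between the ING3 duplicates and 0.10 between the control duplicates, against 0.12 and 0.11 over all tested genes. The difference between groups was larger than both gaps between duplicates for 5 of the 8 other than H2AC8, with ING3 higher in all 5 (H2BC21, H2AC6, H2BC5, H2BC12 and H1-2). It was so for 36.9% of all tested genes, and for 18.7% with ING3 higher.

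The other replication-dependent histone genes were mostly dim. Of 61 listed, 34 had a probe set of their own and 7 passed the filter, and 0 of the 7 were called by limma (1 at an unadjusted p under 0.05). Their median log2 difference was 0.22, with 5 higher and 2 lower in the ING3 cells; 1 of the lower genes, H1-6, passed the filter only through its control arrays. H2AC25, an H2A variant gene listed with them and both the brightest and the one with the largest difference, had signals of 2529 and 2779 on the ING3 arrays and of 1945 and 2197 on the control arrays. Its log2 difference was 0.36 (SE 0.085, unadjusted p = 0.0020). Of the 7, H2BC6, H2BC12L and H4C11 were measured by _x_at probe sets, which may read members as well.

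The histone genes listed as replication-independent, H2AX among them, mostly have polyadenylated messages. Of 9 tested, 0 were called (2 at an unadjusted p under 0.05), and the median log2 difference was 0.04, with 5 higher and 4 lower. They ran from -0.48 for H3-3A, a replacement H3, to 0.40 for MACROH2A2, a macroH2A. The groups did not overlap for 6 of these 9, against 49.2% of all tested genes in either direction.

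**Figure D4:**
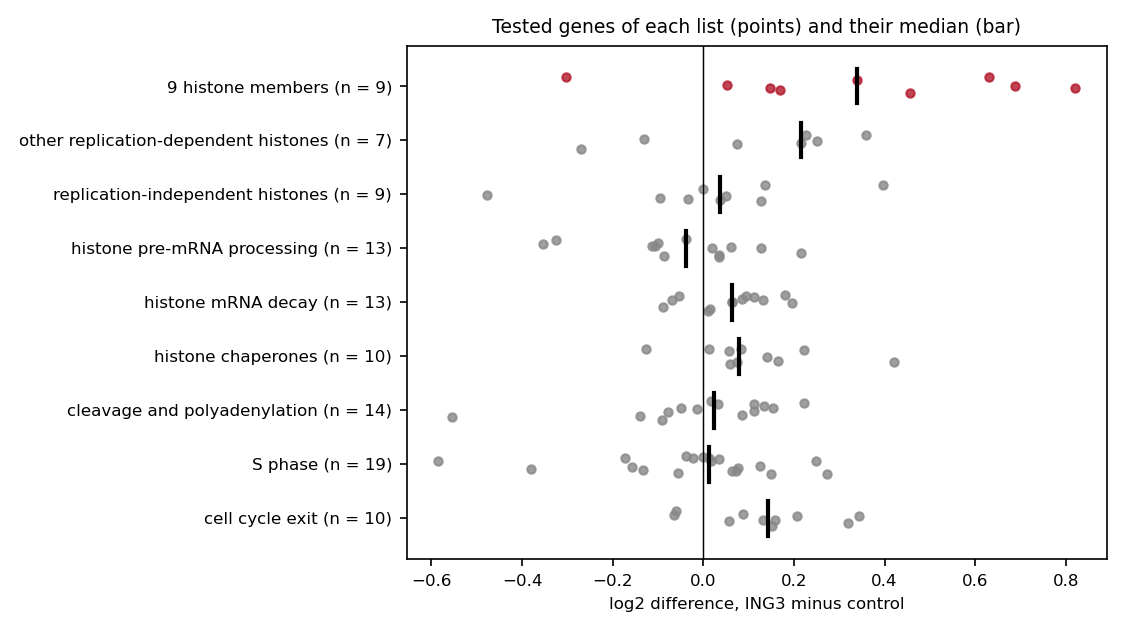
Log2 difference, ING3 minus control, of every tested gene (points; heights within a row carry no value) in 9 gene lists, with the list's median as a bar. The 9 histone members have a median of 0.34, the other lists medians between -0.037 and 0.22. Without H2AC8, which passed the filter only through its ING3 arrays, the members' median is 0.25. The members were chosen with earlier results of these data known. The cell cycle exit list includes CCND1, the cyclin D1 gene.

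None of the genes for factors that make, end and destroy histone messages passed the test. Of 13 genes of histone pre-mRNA processing and transcription 0 were called (3 at an unadjusted p under 0.05), with 6 higher, 7 lower and a median log2 difference of -0.037. CASP8AP2, which encodes the FLASH protein that joins the processing complex, had the largest difference. It had signals of 1189 and 1313 on the ING3 arrays and of 1465 and 1739 on the control arrays, which is a log2 difference of -0.35 (SE 0.10, unadjusted p = 0.0068). CPSF3, the nuclease that cuts histone and other pre-mRNAs and the brightest of the list, had 4290 and 4249 on the ING3 arrays and 3774 and 3583 on the control arrays (log2 difference 0.22, SE 0.063). Neither passed over all genes. SRRT had the smallest p of the list, with 2419 and 2307 on the ING3 arrays and 2988 and 2931 on the control arrays. Its log2 difference was -0.33 (SE 0.067), and it was not called (adjusted p = 0.0511 by limma).

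Of 14 tested genes of general cleavage and polyadenylation 0 were called (2 at an unadjusted p under 0.05), with a median of 0.024. Of 13 genes of histone mRNA decay 0 were called (1 at an unadjusted p under 0.05), with a median of 0.063. Of 10 histone chaperone genes 0 were called (2 at an unadjusted p under 0.05), with a median of 0.079, and the mean was higher in ING3 cells for 9.

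The amount of histone message is known to follow the share of cells in S phase, so genes of S phase were set beside it. Of 19 such genes 0 were called (3 at an unadjusted p under 0.05), with 10 higher, 9 lower and a median log2 difference of 0.013. CDT1, which loads the replicative helicase, had the largest difference, with 782 and 648 on the ING3 arrays and 1235 and 924 on the control arrays (log2 difference -0.58, SE 0.15). TYMS, the thymidylate synthase and the brightest of the list, had 12233 and 13496 on the ING3 arrays and 10453 and 10811 on the control arrays (log2 difference 0.27, SE 0.063). Of 10 genes listed for cell cycle exit 0 were called (3 at an unadjusted p under 0.05), 8 had a higher mean and the median was 0.14. The list also holds CCND1, the cyclin D1 gene, so not every gene in it is one of exit. CCND1 is among the 3 and among the 8 (log2 difference 0.16). The part of the cell cycle in the histone differences was not tested.

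RNA quality was read from the ACTB control probe sets. Their 3′ to 5′ signal ratio was 2.05 and 2.03 on the ING3 arrays and 2.58 and 1.80 on the control arrays, so the control arrays span the ING3 arrays. The keratin and vimentin genes KRT8, KRT18, KRT19 and VIM passed the filter, and KRT19 and KRT8 were called (log2 differences 0.52 and 0.32). EPCAM and CDH1 were under it on all 4 arrays. Of 13 markers of other cell types 8 were under it on all 4 arrays, and their summed signal was 4372 to 4615 in ING3 cells and 5105 to 5441 in control cells. COL1A2, a collagen gene of fibroblasts, held most of that sum. In RNA from whole cultures, fewer cells with a message and less message per cell cannot be told apart.

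**Figure D5:**
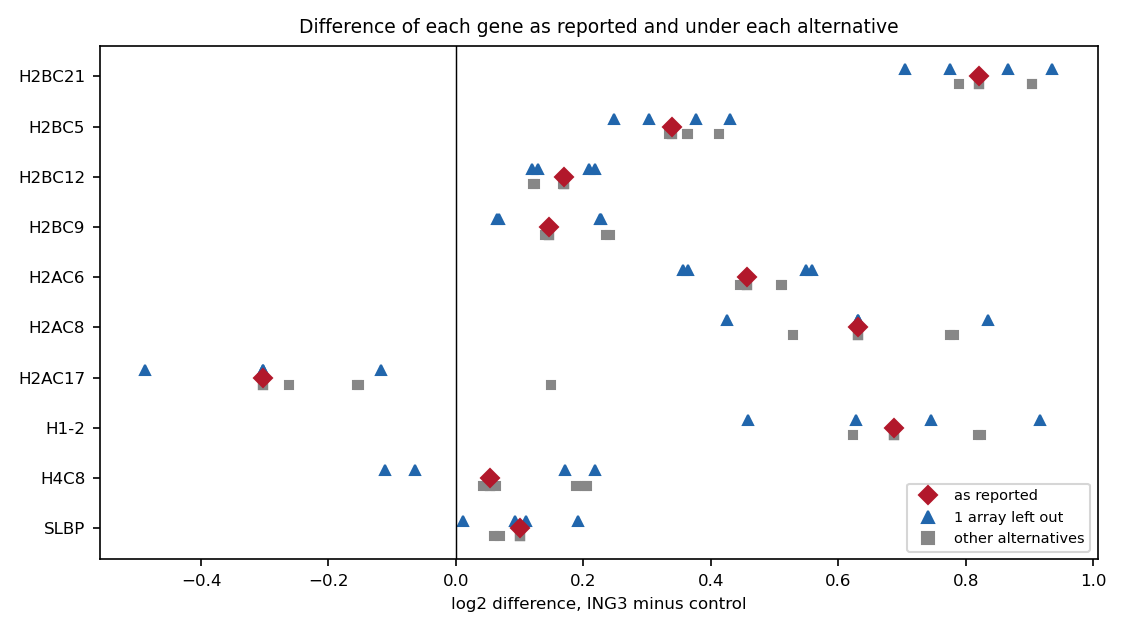
Log2 difference, ING3 minus control, of each gene as reported (diamonds), with each array left out (triangles) and under the other alternatives (squares). H2BC21 stays between 0.71 and 0.94, and H4C8 lies on both sides of 0.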

How the data were processed

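RNA of 2 ING3 and 2 control samples was measured on 1-colour arrays. The authors deposited signal intensity on a linear scale for 54675 probe sets. Per the submitters' processing notes they used Affymetrix Expression Console with MAS5, whose versions the sources used here do not give. The mean without the lowest and highest 2% was about 500.07 on every array, which shows that the authors had scaled them alike. MAS5 subtracts mismatch signals, so dim probe sets vary widely. Detection calls were not used. The number of arrays limits the precision.

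Tests left out 62 control probe sets. The platform annotation, dated 2016, gave 41097 probe sets 1 symbol and 1801 several, and 11777 were unnamed here. Probe sets with several symbols stood for no gene, so the brightest shared ones were set aside for H4C8 and H2AC17 and are given on their own. The value of a gene was that of its brightest probe set by mean log2(signal + 1), and genes at or above the median of all probe sets were tested. Fold changes are on that log2 scale, where the added 1 shrinks changes of dim genes slightly. The test was limma 3.58.1 in R 4.3.3 (lmFit, eBayes with an intensity trend, two-sided, 2 residual and 7.353 prior degrees of freedom), with Benjamini-Hochberg adjustment over all genes and a threshold of 0.05. An exact permutation test of 2 against 2 arrays cannot go below 0.333 and was not used. On simulated data of 12190 genes, 48% of genes changed by 1.5-fold and 75% of those changed by 2-fold were recovered, with 7 false calls among 130. The simulated noise was normal, with variances drawn from the fitted limma model. These shares therefore hold only where that model does, and only for the spread between technical duplicates.

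The members and lists were chosen with earlier results of these data known. Named were all members with all probe sets and up to 4 called genes of each list. Of 3 lists, the brightest gene and the one with the largest difference were named as well. H3-3A, MACROH2A2, H1-6, SRRT, COL1A2, CCND1, and the H2BC6, H2BC12L and H4C11 probe sets were named after their values were seen. Alternatives were quantile and cyclic loess normalization, no filter, a pseudocount of 16, no intensity trend, other choices of probe set, each array left out with the probe sets and genes held, and the array letter as a block. Promoters came from RefSeq (GRCh38.p14), 1 per gene.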

Additional observations from a re-analysis of the deposited data

How the results depend on the processing

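The median log2 difference of the 9 histone genes was 0.25 to 0.43 with 1 array left out, with the probe sets and genes held as reported, and 0.33 to 0.41 under the other alternatives that tested all 9. With probe sets of the _x_at and _s_at kinds left out only 4 of the 9 were tested (median 0.40). All of these medians include H2AC8, whose place on the higher side was fixed by the filter. As reported, the median was 0.34 with H2AC8 and 0.25 without it. It was not computed without H2AC8 under the alternatives, so their ranges do not show how stable that value is. Counts moved more. With quantile normalization 79 genes rose and 36 fell, and with cyclic loess 90 and 36, against 125 and 58 as reported; 1 member rose in each. With no filter on dim genes 42 rose and 12 fell, with gene values averaged over probe sets 26 and 11, with probe sets of the _x_at and _s_at kinds left out 64 and 36, and without the intensity trend 0 and 0 (1686 at an unadjusted p under 0.05); 0 members rose in each of these 4, which for the setting without _x_at and _s_at probe sets was fixed in advance for H2BC21, since its single probe set is of the _s_at kind. Leaving out 1 array gave 2 to 189 genes that rose and 0 to 116 that fell, the low end without control array a or b, and 0 to 1 members that rose. With the array letter as a replicate block 263 genes rose and 179 fell, and 2 members rose, H2BC21 (adjusted p = 0.0087 by limma) and H2AC6 (0.0497). Deviations of arrays with the same letter correlated at r = 0.029 across the 12190 genes and at r = 0.42 across the 9 histone genes. No label says that the letters pair the arrays, and they were not taken to do so. H2BC21 was called under 6 of 12 alternatives. The log2 difference of H4C8 turned to -0.065 without ING3 array b and -0.11 without control array a, and was 0.17 without ING3 array a and 0.22 without control array b. Without control array b its other probe set, 232035_at, became the brighter one, and with that probe set the value was -0.17. That of H2AC17 turned to 0.15 when probe sets with several symbols were kept, an alternative chosen after seeing the data. The cause of the other changes was not tested. Quantile normalization and cyclic loess moved the median of all genes by about 0.02. Members near the filter, H2AC8, H2AC17 and H4C8, had SE of 0.30 to 0.37 on the log2 scale, which limits what they can show.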
